A study of Homo sapiens with 20 samples.

Results

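The mRNAs of 10 genes that carry iron into the erythroid cell, into its mitochondria, into ferritin and out again were followed through the differentiation of HUDEP-2 cells: TFRC, TFR2, STEAP3, SLC11A2, SLC25A37, FTH1, FTL, NCOA4, SLC40A1 and HMOX1. They were chosen by name for their place in iron handling, from 46425 gene symbols in the deposited tables, and all 10 passed the filter on low counts. This choice was made with earlier results of these data known. Counts of the 10 genes set beside shares of all genes are therefore descriptions. HUDEP-2 is an immortalized erythroid progenitor line from human umbilical cord blood, a single line of WT genotype that is kept dividing by viral oncogenes under doxycycline. RNA was taken on day 0, in StemSpan SFEM with EPO, SCF and doxycycline (the methods also list dexamethasone, which the labels do not), and on days 1 to 8 and 12 of differentiation. The differentiation medium was IMDM with holo-transferrin, the iron-loaded carrier, at 330 µg/ml, 5% AB human serum, heparin, insulin, L-glutamine, EPO, SCF and doxycycline. SCF was left out from day 6 and doxycycline from day 8. The 20 libraries, 2 for each of 10 days, are labelled as replicates, and the study calls the 2 of days 0 and 8 biological replicates. Whether they come from separate cultures is not described. If the replicates do not come from separate cultures, the p-values measure technical spread alone. The stages named by the study are proerythroblasts (Pro-E) on day 0, early and late basophilic erythroblasts (EB/LB) on days 4 to 6, polychromatic erythroblasts (Poly) on day 8, and orthochromatic erythroblasts and reticulocytes on day 12.

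Erythroid cells take up iron as transferrin bound to transferrin receptor 1. The iron is released in the endosome, reduced, passed into the cytosol and sent to mitochondria, where it enters heme for hemoglobin. What is not used is held in ferritin, a shell of heavy and light chains, and is set free again when ferritin is delivered to lysosomes. Ferroportin is the exporter, and heme oxygenase recovers iron from heme. In low iron, iron regulatory proteins bind hairpins called iron-responsive elements in some of these mRNAs, which blocks translation when the hairpin lies in the 5′ UTR and protects the mRNA from decay when hairpins lie in the 3′ UTR. The levels below are of mRNA, and translation was not measured.

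These hairpins are shown because letters of this kind are known from the hairpins that iron regulatory proteins bind, and they stand in the 5′ UTR of some of these mRNAs and in the 3′ UTR of TFRC. A hairpin was defined by its letters: an unpaired c, a stem of 5 pairs (g with u allowed), and a 6-base loop (CAGUG followed by any letter but G), searched on the transcript strand in the UTRs of GENCODE coding transcripts on GRCh38 (hg38), the build of the deposited tables. The capitals mark the loop and 6 bases stand on each side of the hairpin.
TFRC hairpin 1, 3′ UTR, chr3:196050979-196051007, minus strand: aauuaucggaagCAGUGCcuuccauaauu
TFRC hairpin 2, 3′ UTR, chr3:196050575-196050603, minus strand: cauuaucgggagCAGUGUcuuccauaaug
TFRC hairpin 3, 3′ UTR, chr3:196050510-196050538, minus strand: cuguaucggagaCAGUGAucuccauaugu
TFRC hairpin 4, 3′ UTR, chr3:196050463-196050491, minus strand: aauuaucgggaaCAGUGUuucccauaauu
FTH1, 5′ UTR, chr11:61967574-61967602, minus strand: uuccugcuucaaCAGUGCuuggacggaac
FTL, 5′ UTR, chr19:48965335-48965363, plus strand: cucuugcuucaaCAGUGUuuggacggaac
SLC40A1, 5′ UTR, chr2:189580661-189580689, minus strand: caacuucagcuaCAGUGUuagcuaaguuu

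Of 19676 coding genes, 28 (0.142%) held these letters in a 5′ UTR and 113 (0.574%) in a 3′ UTR, so a match alone is a description. The 4 TFRC hairpins lay in 10 of its 11 coding transcripts, the FTH1 hairpin in 7 of 8, and the SLC40A1 hairpin in 1 of 5. These are counts of annotated transcripts and not shares of the mRNA. The SLC40A1 hairpin lies within the genomic span of NM_014585, which held 81.3 to 97.3% of the TPM of this gene. The other 6 genes had no match to these letters, which says nothing of hairpins with other letters.

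Libraries held 52131713 to 70358198 counts (median 61806912), and the lowest count of any of the 10 genes in any library was 281, for HMOX1 on day 0. Levels are given as TPM, the share of each mRNA among all transcripts, which are scaled for transcript length and can be set side by side between genes. Tests used counts scaled by TMM, which assumes that most genes do not change. One library of each day comes from a table that spans all days (set A) and the other from 3 tables, of days 0 to 6, of days 7 and 8, and of day 12 (set B). Differences within set B between these spans of days therefore cross tables, and table and day cannot be told apart there. Within a day, 65.3 to 78.0% of genes differed between the sets beyond sampling noise, so the value of each library is given. Ribosomal RNA genes took 18.5% of counts in set B on day 7 and 17.5% on day 8, against 1.03 to 4.08% in the other 18 libraries. Globin genes took 0.819 to 9.85% of counts on days 0 to 8, then 33.7% (set A) and 28.2% (set B) on day 12, so other mRNAs share a smaller part of a day 12 library. In bulk RNA, a lower level from fewer cells of a kind and from less RNA per cell cannot be told apart.

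The cells carried their label's markers: ALAS2 rose from a day mean of 277 TPM on day 0 to 1591 on day 8, the erythroid factor KLF1 ranged from 461 to 897 TPM over the libraries, and HBB, the beta-globin mRNA, was the highest marker in every library. Macrophages also hold much ferritin, ferroportin and HMOX1. Of 10 macrophage markers, C1QA, C1QB, C1QC and SPIC had 0 counts in all 20 libraries, and CD163, CSF1R and MARCO reached at most 7 counts. The macrophage markers together came to 2.01 to 31.9 TPM, nearly all of it CD68, with the highest value on day 1 in set B, and to 2.84 (set A) and 4.31 TPM (set B) on day 12. Mast cell tryptase TPSAB1 was at 527 (set A) and 1009 TPM (set B) on day 0 and had a day mean of 1.85 TPM on day 8. The megakaryocyte gene ITGA2B differed between the sets, at 10.7 and 68.9 TPM on day 0. The platelet genes PF4 and PPBP and the lymphocyte gene CD3E had 0 counts in all 20 libraries, CD79A had at most 40 counts, and the stromal genes COL1A1 and COL3A1 had at most 4. The part of these other markers in the results was not tested.

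Transferrin receptor 1 was the most abundant of the 4 uptake mRNAs in each library, and in TPM all 4 were at their lowest on day 12. On TMM-scaled counts the day 12 libraries of TFRC and of TFR2 overlapped day 1, and those of SLC11A2 overlapped days 0 to 2. TFRC (Gene ID 7037, chr3:196018694-196082123) encodes the receptor that brings transferrin into the cell. On day 0 it stood at 2579 TPM in set A and 1852 in set B, and over the 18 libraries of days 0 to 8 it ranged from 1466 to 3178 TPM (median 2582). On day 12 it stood at 231 and 486 TPM. In TPM the day 12 libraries lay below each of the 18 earlier ones, whereas in TMM-scaled CPM the set B library of day 12 (3514) lay above that of day 1 (3267). On TMM-scaled counts the fall from day 8 to day 12 was -1.59 on the log2 scale (SE 0.25, n = 2 and 2, adjusted p = 8.08e-05), with -2.002 within set A and -1.26 within set B. TFRC also rose from day 0 to day 8 by 0.95 (SE 0.24, adjusted p = 0.00770), but on log2(TPM + 1) the difference was 0.37 with an adjusted p of 0.381, and without the set B library of day 0 the adjusted p was 0.0861.

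TFR2 (Gene ID 7036, chr7:100620416-100641552) encodes transferrin receptor 2, which associates with the EPO receptor in erythroid cells. Its level was 163 (set A) and 144 TPM (set B) on day 0, 128 and 121 on day 8, and 26.0 and 36.4 on day 12. It was the flattest of the 10 genes up to day 8: over 18 libraries it ranged from 107 to 173 TPM. The day 12 difference from day 8 was -0.57 (SE 0.17, adjusted p = 0.0102) on TMM-scaled counts and -1.98 on log2(TPM + 1). The call on counts is not kept without the set A library of day 12 (adjusted p = 0.0635), without the set B library of day 8 (0.0606), with the exact test (0.0903), with upper-quartile scaling (0.0549), with the compared days alone (0.0848) or with set B lacking days 7 and 8 (0.0770). The ratio of TFRC to TFR2 went from 15.8 and 12.8 on day 0 to 24.8 and 20.8 on day 8 and to 8.90 and 13.3 on day 12, in sets A and B.

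STEAP3 (Gene ID 55240, chr2:119222476-119265652) encodes the endosomal ferrireductase that turns ferric into ferrous iron. It stood at 46.0 (set A) and 39.9 TPM (set B) on day 0, had its highest day mean on day 4 with 63.5 and 49.1, and fell to 2.57 and 5.02 on day 12. The sets parted on day 8, at 46.9 and 21.9 TPM. From day 8 to day 12 it fell by 1.70 on the log2 scale (SE 0.30, adjusted p = 0.000302), by 2.34 within set A and by 0.98 within set B.

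SLC11A2 (Gene ID 4891, chr12:50952263-51028886) encodes DMT1, the transporter that moves ferrous iron out of the endosome. It stood at 45.8 (set A) and 38.6 TPM (set B) on day 0, at 62.0 and 51.9 on day 8, and at 7.76 and 14.3 on day 12. On TMM-scaled counts the rise from day 0 to day 8 was 1.02 (SE 0.16, adjusted p = 0.000294), whereas on log2(TPM + 1) it was 0.42 with an adjusted p of 0.166. The fall from day 8 to day 12 was -1.003 (SE 0.16, adjusted p = 0.000102). Its 22 annotated transcripts end at different sites, and the 7 that end at position 50985992 held 64.7 to 76.9% of its TPM on days 0 to 8 and 72.6 to 76.6% on day 12.

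**Figure D1:**
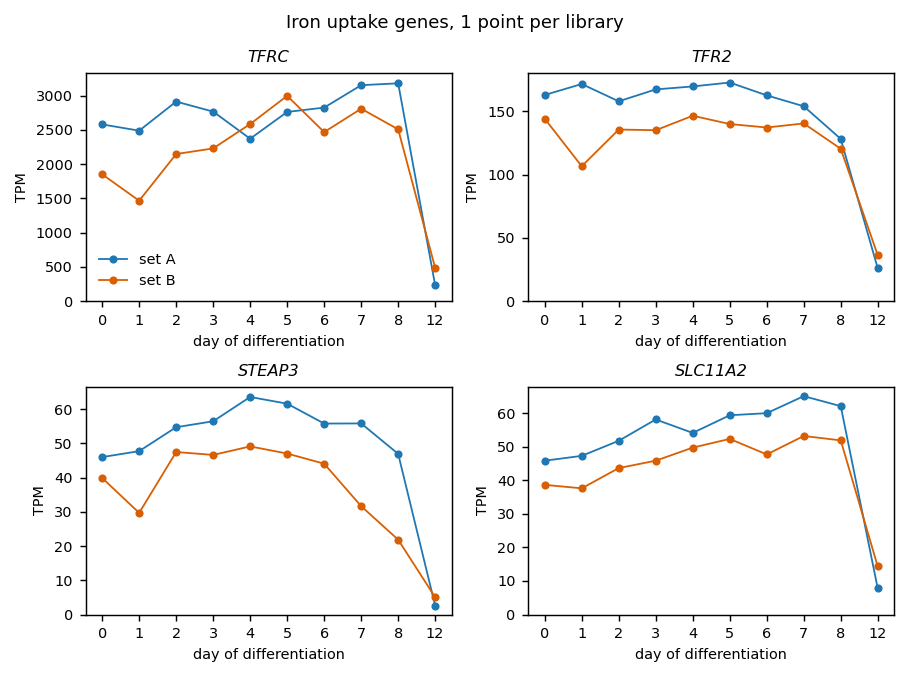
TPM of the 4 uptake genes on each day in the 2 sets of libraries, 1 point per library, with linear axes from 0 and days drawn at equal steps although day 12 follows day 8. Each gene has its 2 lowest libraries on day 12, at 231 and 486 TPM for TFRC.

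Mitoferrin 1 followed another course and stayed high on day 12. SLC25A37 (Gene ID 51312) encodes this carrier, which brings iron into the mitochondria of erythroid cells for heme. Its level was 385 (set A) and 335 TPM (set B) on day 0, 583 to 1381 TPM over the 6 libraries of days 4 to 6, and 1719 and 2134 on day 8. The day 8 libraries lay above all of days 0 to 6. The rise from day 0 to day 8 was 3.00 on the log2 scale (SE 0.34, adjusted p = 2.76e-05), with 2.64 within set A and 3.31 within set B. On day 12 it stood at 2005 and 2699 TPM, which overlaps days 7 and 8. The day 12 difference from day 8 thus depends on scaling: 1.72 (SE 0.32, adjusted p = 0.000444) with TMM, 0.91 with library totals alone, and 0.28 on log2(TPM + 1) with an adjusted p of 0.432. While TFRC fell on day 12, SLC25A37 did not fall under any of these scalings, and the ratio of SLC25A37 to TFRC went from 0.541 and 0.851 on day 8 to 8.67 and 5.56 on day 12, in sets A and B.

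Both ferritin chains were more abundant than the other 8 mRNAs on each day, and both rose from day 8 to day 12. FTH1 (Gene ID 2495, chr11:61964285-61967634) encodes the heavy chain, which oxidizes ferrous iron. It went from 4378 (set A) and 4354 TPM (set B) on day 0 to 7723 and 7895 on day 1. From day 2 to day 7 its 12 libraries spanned 5759 to 7006 TPM, and it then stood at 6474 and 8307 on day 8, and reached 19688 and 19846 on day 12. In TPM the day 1 libraries lay above those of day 0 and of days 2 to 7, but with globin and ribosomal RNA genes left out day 7 (8815 and 9365) lay above day 1 (8277 and 8347). The day 12 libraries lay above every other. The day 1 difference of 0.92 (SE 0.19, n = 2 and 2) had an adjusted p of 0.0654 over all genes. Over the alternatives the adjusted p went from 0.000356 (DESeq2) to 0.356 (the compared days alone), and with 1 library left out up to 0.506. From day 8 to day 12 FTH1 rose by 2.85 (SE 0.21, adjusted p = 7.0e-08), and by 1.43 on log2(TPM + 1).

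FTL (Gene ID 2512, chr19:48963941-48966879) encodes the light chain, which supports the mineral core. It went from 5202 (set A) and 7236 TPM (set B) on day 0 to 9808 and 11629 on day 1, and lay between 7236 and 10488 TPM on days 2 to 7. On day 8 the sets parted, at 7131 and 12413 TPM. On day 12 it stood at 27482 and 21478. The day 1 difference was 0.87 (SE 0.35, adjusted p = 0.441). From day 8 to day 12 FTL rose by 2.77 (SE 0.37, adjusted p = 2.14e-05), by 3.73 within set A and 1.90 within set B. Its rise from day 0 to day 8, 1.29 (SE 0.35, adjusted p = 0.0114), is not kept without the set B library of day 8, the one high in ribosomal RNA (0.65, adjusted p = 0.202).

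While both chains rose from day 8 to day 12, their ratio went down in set A and up in set B. FTH1 over FTL was 0.842 and 0.602 on day 0, 0.908 and 0.669 on day 8, and 0.716 and 0.924 on day 12, in sets A and B, so the order of the sets turned. Together they were 0.958 and 1.16% of all TPM on day 0 and 4.72 and 4.13% on day 12. Set against TFRC, the sum of the ferritin chains was 3.71 and 6.26 times its level on day 0, 4.28 and 8.26 times on day 8, and 204 and 85.1 times on day 12. Whether reads were misplaced between the ferritin genes and their pseudogenes was not tested. The 20 FTH1 pseudogenes held 0.362 to 0.789% of the counts of gene and pseudogenes together, and 10 FTL pseudogenes 0.0169 to 0.0612%. With its pseudogenes the TPM of FTH1 was 4428 in place of 4378 on day 0 in set A.

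NCOA4 (Gene ID 8031, chr10:46005088-46030714) encodes the receptor that binds ferritin and carries it to the lysosome for iron release. It rose late: 161 (set A) and 133 TPM (set B) on day 0, 166 to 239 over days 4 to 6, 317 and 413 on day 8, and 535 and 760 on day 12. The libraries of days 7, 8 and 12 lay above each one of days 0 to 6. The rise from day 0 to day 8 was 1.93 (SE 0.23, adjusted p = 4.55e-05) and that from day 8 to day 12 was 2.22 (SE 0.24, adjusted p = 2.63e-06), the latter 0.82 on log2(TPM + 1) with an adjusted p of 0.00275.

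The transcripts of NCOA4 differed in how far they changed. This was looked at after the values had been seen and is given without a test. The gene lies on the minus strand, and 3 of its 5 transcripts start at the far upstream site, position 46030714, while NM_005437 starts at 46023458 and NM_001145262 at 46019537. Transcripts of the upstream site stood at 153 (set A) and 128 TPM (set B) on day 0, 223 and 190 on day 8, and 123 and 166 on day 12. Those of the 2 downstream sites went from 7.88 and 4.55 TPM on day 0 to 22.8 and 32.0 on day 1, 94.2 and 223 on day 8, and 412 and 594 on day 12. Their share of NCOA4 went from 4.89 and 3.43% on day 0 to 76.99 and 78.2% on day 12. The direction of the upstream transcripts from day 8 to day 12 turned with scaling: with globin and ribosomal RNA genes left out of the TPM they stood at 303 and 295 on day 8 and 347 and 429 on day 12. The downstream ones were higher on day 12 than on day 8 in both sets on both scales, with NM_005437 alone at 376 and 530 TPM on day 12. StringTie splits reads that transcripts share, and reads over the first exons were not analysed here.

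SLC40A1 (Gene ID 30061, chr2:189560590-189580811) encodes ferroportin, the iron exporter. It was 191 (set A) and 158 TPM (set B) on day 0 and 134 and 128 on day 8, and it then went up to 256 and 298 on day 12. On days 1 to 6 the sets did not overlap: set A stood at 182 to 230 TPM and set B at 109 to 132. Against day 8 the day 12 rise was 2.52 (SE 0.32, adjusted p = 1.6e-05), 2.71 within set A and 2.32 within set B, and 1.07 on log2(TPM + 1) with an adjusted p of 0.0176. Day 8 against day 0 gave 0.20 (SE 0.31, adjusted p = 0.648), a value that turned to -0.40 on log2(TPM + 1). NM_014585 held 81.3 to 97.3% of its TPM.

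HMOX1 (Gene ID 3162, chr22:35381096-35394207) encodes heme oxygenase 1, the inducible enzyme that opens heme and frees its iron. It started as the lowest of the 10 genes and had the widest range. It stood at 6.03 (set A) and 8.32 TPM (set B) on day 0, 21.3 and 15.7 on day 1, and 5.93 to 14.9 over the 6 libraries of days 4 to 6. On days 7 and 8 the sets went apart, with 17.3 and 20.4 TPM in set A and 50.7 and 122 in set B. On day 12 both were high, at 507 and 582 TPM from 42339 and 40578 counts. The day 12 libraries lay above each of the others. The rise from day 8 to day 12 was 4.28 (SE 0.77, adjusted p = 0.000312), 6.41 within set A and 3.37 within set B, and that from day 0 to day 8 was 4.002 (SE 0.77, adjusted p = 0.00139). The day 7 and day 8 libraries of set B are those with 18.5 and 17.5% ribosomal RNA, and the part of that difference in the HMOX1 values was not tested. With both left out, which leaves 1 library on day 8 and takes the spread from other days, the difference from day 0 was 1.99 (adjusted p = 0.00520).

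**Figure D2:**
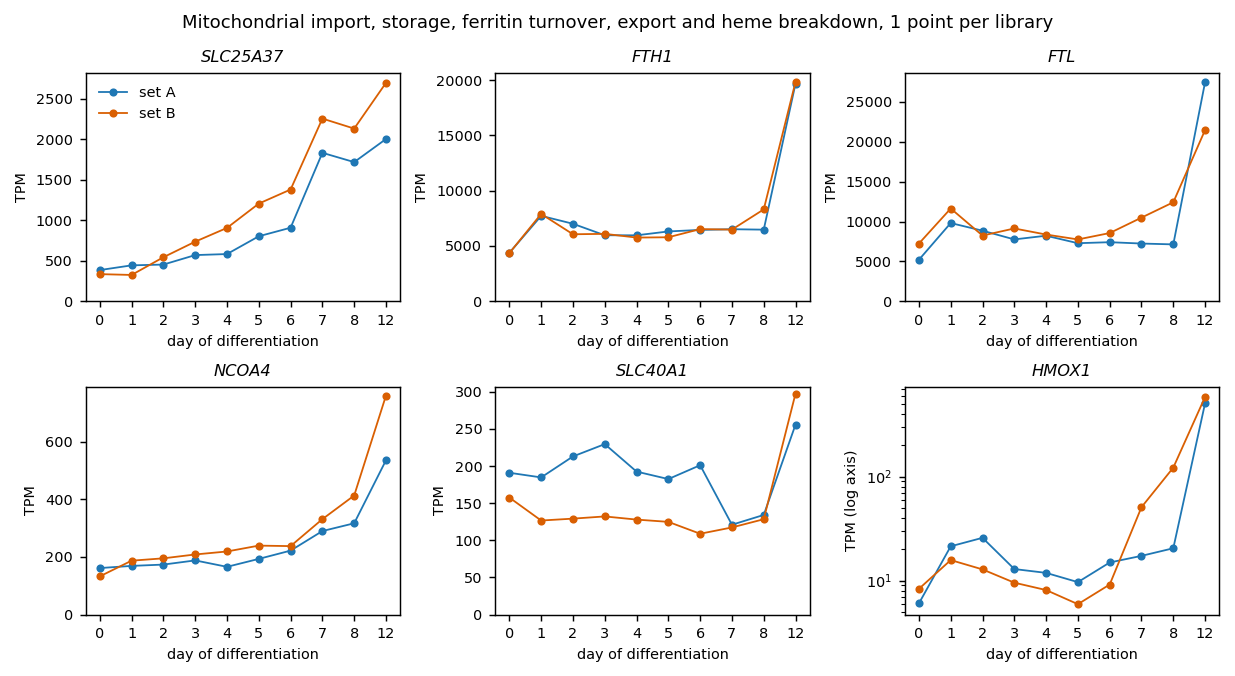
TPM of the other 6 genes on each day in the 2 sets of libraries, 1 point per library, days at equal steps; the HMOX1 axis is logarithmic and the others are linear from 0. FTH1 and FTL are highest on day 12, where FTH1 stands at 19688 and 19846 TPM, and HMOX1 differs between the sets on days 7 and 8.

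The first day in holo-transferrin medium, the comparison closest to the change of medium, gave no call among the 10 genes (0 of 10, against 0.393% of 16784 genes tested, 0.262% higher and 0.131% lower). The values furthest from 0 were those of HMOX1 (1.44, SE 0.71, adjusted p = 0.591), FTH1 (0.92) and FTL (0.87), each with both day 1 libraries above both of day 0. The median of the 10 was 0.12 against 0.00 over all genes. In other fits 1 or 2 of the genes were called. FTH1 passed with library set as a term, and with DESeq2, the exact test or TPM. It also passed with no filter beyond 1 count, with library totals, and with set B lacking days 7 and 8. HMOX1 passed with the exact test as well.

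Between Pro-E and EB/LB, day 0 and days 4 to 6, 4 of the 10 genes rose and 0 fell, against 16.6% of all genes called, 7.38% higher and 9.22% lower. SLC25A37 rose by 1.56 (SE 0.28, adjusted p = 0.00228), NCOA4 by 0.69, FTH1 by 0.65 and SLC11A2 by 0.51. The median of the 10 was 0.51 and that of all genes -0.01. With either day 0 library left out, SLC25A37 was the one gene of the 4 whose adjusted p stayed under 0.05.

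From EB/LB to Poly, days 4 to 6 and day 8, 5 of the 10 genes rose and 0 fell, against 22.7% of all genes called, 11.9% higher and 10.8% lower: HMOX1 by 3.41 (SE 0.51), SLC25A37 by 1.44 (SE 0.24), NCOA4 by 1.24 (SE 0.17), FTH1 by 0.74 (SE 0.15) and SLC11A2 by 0.51 (SE 0.12). TFRC (0.53, adjusted p = 0.0603) and FTL (0.79, adjusted p = 0.0514) did not pass, but did with library set as a term (adjusted p = 0.0360 and 0.0234). That term takes the same difference between the sets on each day, although set B crosses tables in this comparison. FTL was 0.24 within set A and 1.14 within set B, and 0.15 (adjusted p = 0.894) without the set B library of day 8. Without the set B libraries of days 7 and 8, 2 of the 10 were called, NCOA4 (0.88, adjusted p = 0.0277) and HMOX1 (1.38, adjusted p = 0.0496), and over all genes 553 were called in place of 3816. Day 8 then has 1 library, which is assumed to vary like the other days, and with the day 8 library of set B alone left out HMOX1 was not called (1.37, adjusted p = 0.135). In that fit FTH1 was 0.38 and SLC25A37 1.12, also not called, while SLC11A2 kept its value of 0.51 and lost its call without either day 8 library.

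Over the whole span from day 0 to day 8, 7 of the 10 genes rose and 0 fell, against 37.1% of all genes called, 17.7% higher and 19.4% lower, with a median of 1.16 against 0.00. TFR2 (0.30), STEAP3 (0.21) and SLC40A1 (0.20) did not pass, and each was below 0 on log2(TPM + 1). On that scale, on which the median of all genes was -0.34 and 1223 genes were called higher and 6660 lower in place of 2970 and 3254, 4 of the 10 were called higher: SLC25A37, FTH1, NCOA4 and HMOX1. The comparisons share the libraries of day 0 or of day 8 and are therefore not independent of each other.

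From Poly to day 12 the 4 uptake genes fell and the other 6, for mitochondrial import, storage, ferritin turnover, export and heme breakdown, rose, against 33.4% of all genes lower and 23.8% higher. These calls have a wide background, since 57.2% of all genes changed. The median of all genes was -0.20, and relative to it the falls were smaller by that amount. With library totals in place of TMM, the median of all genes was -1.02, with 1983 genes higher and 8127 lower in place of 3997 and 5611. On that scale the direction of each of the 10 was the same, and on log2(TPM + 1) SLC25A37 kept its direction but was not called. Over the 10 days as a whole 9 of the 10 genes changed, against 66.0% of all genes, and TFR2 did not pass (adjusted p = 0.0502).

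**Figure D3:**
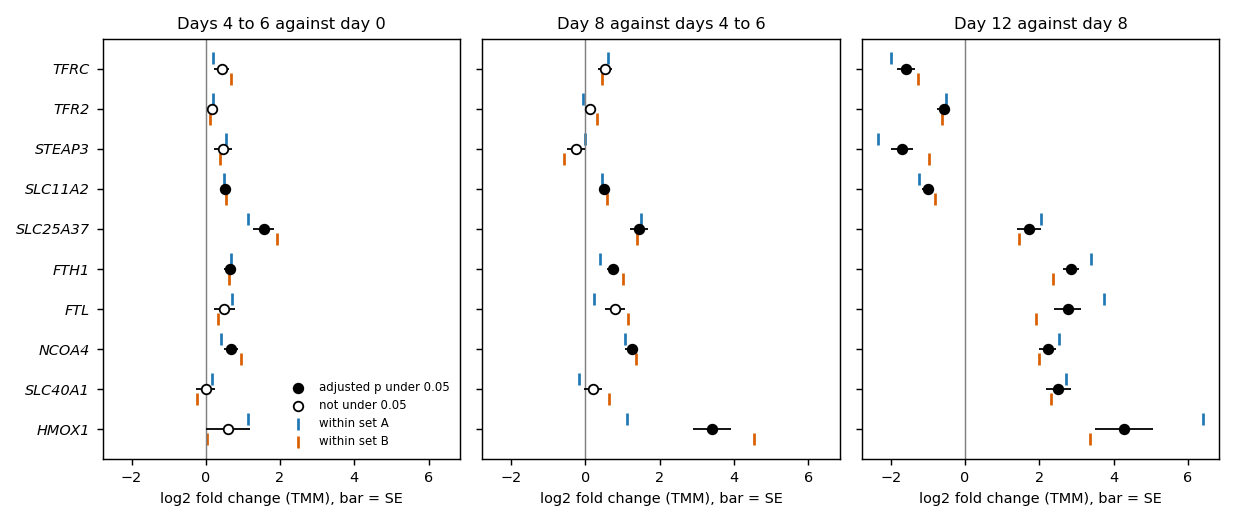
Log2 fold change with its SE (bar) of each gene between stages, from TMM-scaled counts in 20 libraries; filled circles have an adjusted p under 0.05, and ticks give the difference within set A and within set B. On day 12 the 4 uptake genes lie below 0 and the other 6 above it in both sets.

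**Figure D4:**
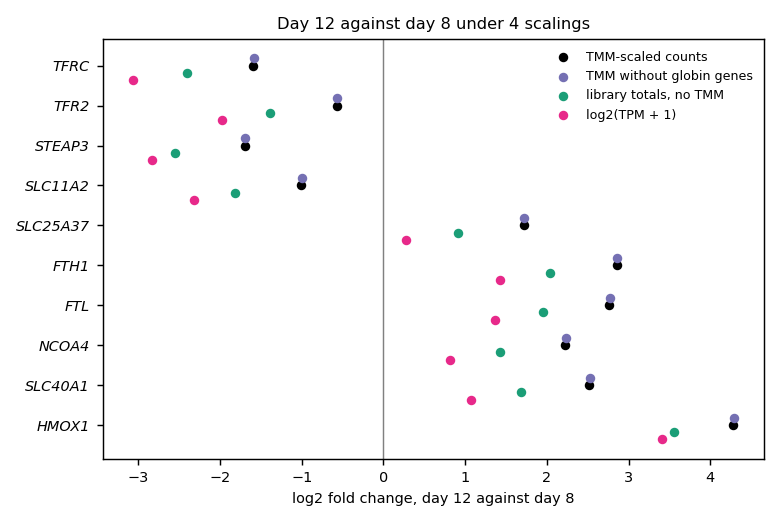
Log2 fold change of day 12 against day 8 for each gene under 4 scalings. The values move to the left with library totals and with TPM, and SLC25A37 goes from 1.72 to 0.28.

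**Figure D5:**
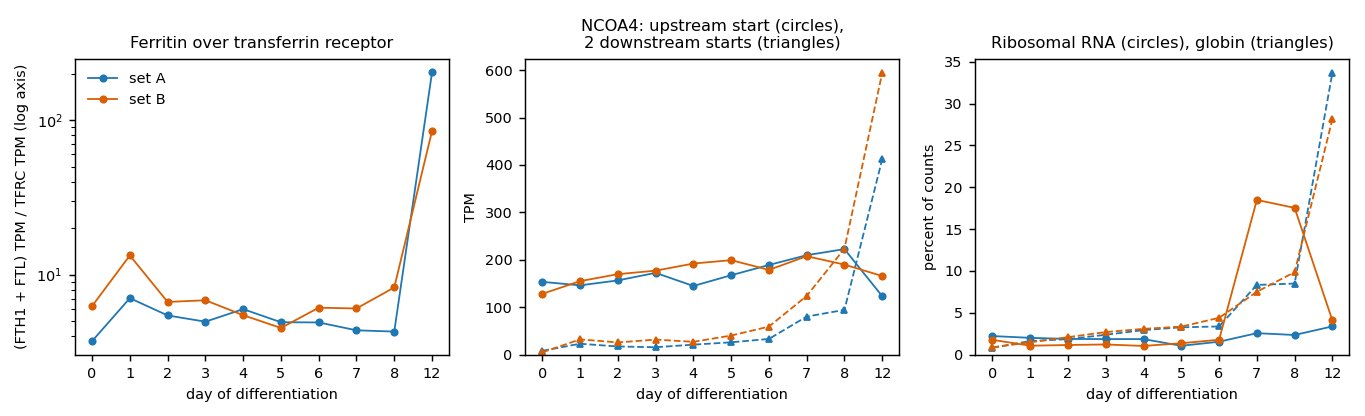
By day and set: ferritin (FTH1 plus FTL) over TFRC in TPM on a log axis (left), TPM of NCOA4 transcripts from the upstream and from the 2 downstream start sites (middle), and percent of counts from ribosomal RNA and globin genes (right), days at equal steps. The ratio reaches 204 and 85.1 on day 12, the downstream NCOA4 transcripts 412 and 594 TPM, and the set B libraries of days 7 and 8 stand apart by ribosomal RNA.

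Of 65 other genes of iron handling in 9 groups, 53 passed the filter on low counts. This list too was chosen with earlier results of these data known, so its counts are descriptions. From day 0 to day 8, 24 of the 53 rose and 9 fell, with a median of 0.46, against 17.7% of all genes higher and 19.4% lower. From day 8 to day 12 18 rose and 19 fell, with a median of 0.11, against 23.8% higher and 33.4% lower. HAMP, the gene of hepcidin, and TMPRSS6 had 0 counts in all libraries, and TF, transferrin itself, had at most 13. These shares of all genes are the background of each group count that follows. In each group the genes with the largest day 8 change that passed the test are given, up to 2 a group, with the log2 fold change of day 8 against day 0.

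Of 6 iron regulatory proteins and sensors 2 fell and 0 rose by day 8: EPAS1, a hypoxia-inducible factor whose mRNA carries an iron-responsive element, by -2.32 (SE 0.54, adjusted p = 0.00495), and ACO1, iron regulatory protein 1, by -0.73 (SE 0.19, adjusted p = 0.00786). EPAS1 differed between the sets, with -4.03 within set A and -0.92 within set B, its adjusted p reached 0.0704 under the alternatives and 0.0587 with a library left out, and it rose by 3.21 from day 8 to day 12 (adjusted p = 0.000256). The adjusted p of ACO1 reached 0.128 and 0.0896 in the same way. ACO1 stood at 21.6 TPM in both sets on day 0 and at 0.573 (set A) and 0.977 (set B) on day 12. Of 8 tested genes of the transferrin cycle 3 rose, among them PICALM, a clathrin adaptor needed for receptor uptake (1.27), and MARCHF8, a ubiquitin ligase that can target the transferrin receptor (1.12, and 0.47 with an adjusted p of up to 0.414 under the alternatives). From day 8 to day 12 PICALM fell by 0.85 and MARCHF8 rose by 2.11. Of 6 genes of uptake without transferrin 3 rose and 1 fell, SLC39A14, a zinc and iron importer, by -5.41 (SE 0.49, adjusted p = 4.99e-06), from 35.7 and 24.5 TPM on day 0 to 0.417 and 0.451 on day 8. LTF, lactoferrin, rose by 2.63 at low levels (0.838 TPM or less on these days), by 1.18 within set A and 4.17 within set B, and its adjusted p of 0.0395 reached 0.226 with a library left out.

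Of 12 genes of mitochondrial iron and iron-sulfur clusters 8 rose and 3 fell by day 8, and 4 rose and 7 fell from day 8 to day 12, against the same shares of all genes. GLRX5, which passes clusters on and is needed for heme synthesis in red cells, rose by 1.51 (SE 0.26), from 248 and 267 to 463 and 497 TPM, while the co-chaperone gene HSCB fell by 1.52 (SE 0.27), from 11.3 and 10.3 to 2.67 and 2.22 TPM. Of 4 tested genes of chaperones and ferritin turnover 2 rose, TAX1BP1, an autophagy receptor (0.72), and PCBP1, a cytosolic iron chaperone (0.45), and from day 8 to day 12 they rose by 1.66 and 1.82. TAX1BP1 was as low as 0.11 on day 8 under the alternatives, with an adjusted p of up to 0.595. The direction of PCBP1 on day 8 depended on scaling, since its TPM was 543 and 531 on day 0 and 515 and 457 on day 8, in sets A and B. HEPH, the one ferroxidase tested, fell from 79 and 60 counts on day 0 to 0 and 8 on day 8, with an adjusted p of up to 0.0962 under the alternatives, and that of HSCB reached 0.223.

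All 6 tested genes of heme breakdown and transport changed by day 8, 4 up and 2 down, against 37.1% of all genes called. BLVRB, a biliverdin reductase gene, rose by 2.05 (SE 0.16), from 871 and 818 to 2269 and 2334 TPM. HMOX2, the constitutive heme oxygenase, fell by 2.35 (SE 0.26), from 48.9 and 62.7 to 8.69 and 6.13 TPM, so that HMOX1 and HMOX2 moved in opposite directions. Of 6 regulators of HMOX1 and ferritin transcription 2 rose by day 8, MAFG (2.08), a small Maf partner, and BACH1 (1.86), the heme-sensing repressor of HMOX1. By day 12 all 6 had risen against day 8, against 23.8% of all genes, although BACH2 among them had 0 counts in both day 8 libraries and the TPM of BACH1 was 56.9 and 69.0 on day 8 and 52.5 and 90.5 on day 12. Of 4 tested genes of the hepcidin axis 2 rose: ERFE, erythroferrone, the erythroid hormone that lowers hepcidin, by 3.70 (SE 0.34) from 16.7 and 24.2 to 145 and 201 TPM, and GDF15, a stress-induced secreted factor, by 4.60 (SE 1.16). GDF15 differed between the sets on day 8, at 79.3 (set A) and 503 TPM (set B), and already on day 0, at 5.38 and 32.5. HMOX1 also differed on day 8, but on day 0 it stood at 6.03 and 8.32 TPM. On day 12 GDF15 stood at 3951 and 5073 TPM. Its day 8 call is not kept under each alternative (adjusted p up to 0.0860). From day 8 to day 12 the calls of TAX1BP1, PCBP1, MAFG, BACH1 and SLC39A14 are not kept under each alternative either (adjusted p up to 0.232, 0.0771, 0.238, 0.649 and 0.127), nor is that of PICALM with a library left out (0.0730).

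The genes whose course was most like that of each member were sought among 4895 genes with a range of at least 2 on the log2 scale over the days, by the lower of the 2 correlations of TMM-scaled log2 CPM over the 10 days, 1 in each set. The days of set A share a table, whereas those of set B come from 3. For FTH1 the nearest gene was FTL, and for FTL it was FTH1 (0.99), followed for FTL by SQSTM1, an autophagy receptor (0.99). For HMOX1 they were OSGIN1 (0.99), CLCF1 and OSR2, for NCOA4 they were ASAH1 (0.997), a lysosomal ceramidase, STAM and STOM, and for SLC25A37 they were ZCCHC8 (0.99) and FHDC1. For STEAP3, which fell, they were REPS2 (0.98), CCNE1, the cyclin E gene, and ACSS1. For SLC40A1 they were LOC112268047 (0.99), which was listed at 0 in both day 0 libraries and at 0.344 and 0.343 TPM on day 12, and CNNM4. TFRC, TFR2 and SLC11A2 did not reach a range of 2 and were not compared. These correlations were taken on TMM-scaled values and not on TPM. In TPM, ASAH1 stood at 73.0 (set A) and 56.3 (set B) on day 0, and at 56.8 and 108 on day 12. NCOA4 itself rose in both sets. The other named genes near a rising member were higher in TPM on day 12 than on day 0 in both sets.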

How the data were processed

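Counts, FPKM and TPM per RefSeq transcript were deposited for 20 libraries of HUDEP-2 cells (TruSeq Stranded mRNA). The authors used Trimmomatic 0.38 for trimming, HISAT2 2.1.0 for alignment to hg38 and StringTie 2.1.3b for known transcripts; versions are from the submitters' processing notes, and the annotation release is not given in the sources used here. The read counts deposited by the authors are whole numbers without normalization. The TPM deposited by the authors are scaled for transcript length so that each library has the same sum. Of the columns with values per library, 40 were used; 23 (FPKM and one more set of day 0 columns) were not. Columns name a day but no replicate. Day 0 has 3 sets of columns for 2 samples; those of the tables that begin on day 0 and hold days 1 to 6 were used, and which of the 3 belong to the labelled samples is not given, which bears on each comparison with day 0.

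Counts and TPM of 170322 transcripts were summed by symbol to 46425 genes. All 20 libraries entered 1 fit with a coefficient per day in edgeR 4.0.16 (filterByExpr, TMM, glmQLFit, glmQLFTest; R 4.3.3), with Benjamini-Hochberg adjustment over 16784 genes and a threshold of 0.05. The quasi-likelihood test replaced the exact test that the study names for edgeR. Differences between days are log2 fold changes, and SE is the absolute log2 fold change over the square root of F. Differences within a set use log2 CPM with a prior count of 2. Lists of 65 pathway genes and of marker genes, the naming rule (at most 2 genes per pathway group, by the largest day 8 change among those with an adjusted p under 0.05 and a mean of at least 10 counts) and the 10 members were chosen with earlier results of these data known. Alternatives were DESeq2 1.42.0, the exact test, upper-quartile scaling, TMM without globin or ribosomal RNA genes, limma 3.58.1 on log2(TPM + 1) and log2(TPM + 0.1), other filters, only the days compared, set as a term, curated transcripts, and each library left out. Library totals without TMM, and set B without days 7 and 8, were chosen after seeing the data. Tests were checked on simulated data. A few genes that these rules name are not reported here. Without molecular identifiers, counting error is a lower limit.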

Additional observations from a re-analysis of the deposited data

How the results depend on the processing

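No paired analysis was possible because the deposited columns carry no replicate number. A fit with library set as a term was run, which takes the same difference between the sets on each day and does not pair libraries. Of 700 values of the 10 genes in 50 results under alternatives other than a left-out library, 629 kept their direction and side of the threshold, 22 became called, 27 lost the call and 22 reversed; the cause was not tested. On day 12 the direction of all 10 genes was the same in each alternative.

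Over all genes, the 66 calls of day 1 became 425 with DESeq2, 245 with the exact test, 299 and 157 with log2(TPM + 1) and log2(TPM + 0.1), 0 with the compared days alone (edgeR), 442 with set as a term and 38 with curated transcripts. Of the 10 genes, 2 were called on day 1 with the exact test and 1 each with DESeq2, both TPM scales, no filter, set as a term, library totals, and set B without days 7 and 8. For days 4 to 6 against day 0, 2785 calls became 4408 with the exact test (7 of the 10 genes higher in place of 4), 4809 with set as a term and 1531 with curated transcripts. For day 8 against days 4 to 6, 3816 calls became 5908 and 5872 on the TPM scales (3 of the 10 higher in place of 5), 2418 with the compared days alone, 6104 with set as a term, 2201 with curated transcripts and 553 without days 7 and 8 of set B (2 of the 10). For day 8 against day 0, 6224 calls became 3726, 4023 and 3721 with the compared days alone, curated transcripts and set B without days 7 and 8, and 4 of the 10 genes were higher on the TPM scales in place of 7.

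Reversals were of genes that were not called. SLC40A1 on days 4 to 6 against day 0 went from -0.01 to 0.0043 (exact test), 0.0020 (upper quartile), 0.00020 (TMM without globin genes), 0.0040 (compared days alone), 0.013 (curated transcripts) and 0.016 (set B without days 7 and 8). For day 8 against days 4 to 6, log2(TPM + 1), log2(TPM + 0.1) and library totals gave -0.31, -0.31 and -0.19 for TFR2 and -0.21, -0.21 and -0.12 for SLC40A1, and STEAP3 was 0.12 with set B lacking days 7 and 8. For day 8 against day 0 they gave -0.30, -0.30 and -0.089 for TFR2, -0.41, -0.42 and -0.12 for STEAP3, and -0.40, -0.40 and -0.19 for SLC40A1.

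With each library left out in turn, where a day left with 1 library is assumed to vary like the other days, calls over all genes ranged from 7 to 113 (day 1), 959 to 3061 (days 4 to 6 against day 0), 464 to 4096 (day 8 against days 4 to 6), 3568 to 6484 (day 8 against day 0), 7982 to 9591 (day 12) and 9636 to 10978 (any change). Of the 10 genes, 0 to 1, 1 to 4, 1 to 7, 6 to 7 and 6 to 6 were higher in these comparisons, 3 to 4 were lower on day 12, and 8 to 10 changed over the days. Without the set B library of day 8, day 8 against days 4 to 6 was not called for HMOX1 (1.37), FTH1 (0.38), SLC25A37 (1.12) or SLC11A2 (0.51). Signs also turned on day 1 for TFRC (-0.45 to 0.20), TFR2 (-0.38 to 0.18), STEAP3 (-0.37 to 0.17), SLC11A2 (-0.043 to 0.17) and SLC40A1 (-0.31 to 0.11), for SLC40A1 on days 4 to 6 against day 0 (-0.14 to 0.10), and for STEAP3 on day 8 against days 4 to 6 (-0.74 to 0.11) and against day 0 (-0.26 to 0.57).

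The 2 libraries of each day come from separate tables. The spread within a day holds both the difference between libraries and that between tables, and these cannot be told apart.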

Other observations

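The genes below were picked from the pathway list after their day 12 values had been seen. From day 8 to day 12, 57.2% of all genes were called. ISCU, the scaffold on which iron-sulfur clusters are built, rose by 3.59 on the log2 scale from day 8 to day 12, and ISCA1, a later carrier of clusters, by 2.06. In the same comparison NFS1, the sulfur donor, fell by 1.54. These sizes depend on the processing: under the alternatives the lowest values were 2.09 for ISCU, 0.61 for ISCA1 and -2.83, a larger fall, for NFS1. Such values are not given here for the genes that follow. ABCB10 and TMEM14C, both needed for heme synthesis in the mitochondria of red cells, rose by 1.42 and 1.28 from day 0 to day 8 and fell by 1.30 and 1.63 from day 8 to day 12. FLVCR1, a heme exporter, fell by 3.43 on day 12, and MAFK, a small Maf protein, rose by 3.14.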
